A study of Mus musculus with 19 samples.

Results

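Respiratory complexes II to V are the assemblies of the inner mitochondrial membrane that follow complex I in oxidative phosphorylation. Their nuclear genes were chosen by symbol alone: Sdha, Sdhb, Sdhc or Sdhd for complex II, and symbols beginning with Uqcr for complex III, with Cox4, Cox5, Cox6, Cox7 or Cox8 for complex IV, and with Atp5 for complex V. The array carried 45 such genes on 54 probes, and 40 of them passed the detection filter, among 11072 genes tested in all. Of these 40, complex II held 3, complex III 7, complex IV 15 and complex V 15. No probe carried the symbol Sdha, which was not analysed here.

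The study measured total RNA of the prefrontal cortex of female mice aged 20 months on Illumina bead arrays, 1 array per sample. The 19 arrays fell into 4 genotypes. The wild type (n = 5) was the C57BL/6 strain. Mice named Pol β (+/-), written Polb+/- here (n = 4), were heterozygous for DNA polymerase beta, which fills short gaps when damaged bases are cut out of DNA. The 3xTgAD mice (n = 6) carried APPswe, PS1M146V and tauP301L. The 3xTgAD/Polb+/- mice (n = 4) came from crossing both lines and carried all 3 mutations and the Polb deletion on 1 of the gene's copies. C57BL/6 is the strain label of every array. As background, the APP and tau transgenes of this line are driven by Thy1 regulatory sequences, which act mainly in neurons, and the presenilin allele is a knock-in. The labels give separate samples without naming animals, and 3xTgAD replicates 2 and 5 share a code in the column headings, so p-values measure only the spread between these samples.

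In the respiratory chain, complex II (succinate dehydrogenase) passes electrons from succinate to ubiquinone, complex III passes them on to cytochrome c, and complex IV (cytochrome c oxidase) hands them to oxygen. Complexes III and IV pump protons, and complex V (ATP synthase) uses the returning protons to make ATP, on which neurons depend for ion pumping and synaptic transmission. Except for complex II, whose subunits are all encoded in the nucleus, these complexes combine nuclear subunits, measured here, with subunits made from mitochondrial DNA. NRF-1 and the ETS factor GABP are known activators of many nuclear respiratory genes.

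Because many of these subunits were low on the same arrays, the sequence around their start sites was searched for 2 motifs. They were the NRF-1 core motif CGCATGCG, which reads the same on both strands, and the GABP motif CCGGAAGT on either strand. RefSeq windows (GRCm38.p6, 250 bases before to 50 after the start, 300 bases in all) were at hand for 34 of the 45 genes. The NRF-1 motif occurred in 7 of the 34 (Atp5g2, Atp5j, Atp5k, Atp5l, Cox6a1, Uqcr11 and Uqcrc1) and in 1.87% of 32851 windows of all genes. The GABP motif occurred in 4 (Atp5h, Cox8a, Uqcr11 and Uqcrh) and in 3.89% of all windows. A gene was counted if any of its windows held a match, so these counts and the shares of windows are unlike measures. In Uqcrc1 the only NRF-1 match begins 31 bases after the start. The windows of Cox7a1, Cox6b1, Cox5a, Cox5b and Cox7c, which also had lower means in 3xTgAD/Polb+/- than in wild-type arrays, held neither motif. Whether a match goes with the size of a difference was not tested. The motifs were chosen after the values were seen, and a match is a run of letters, not a shown binding site. A stretch of 100 bases is printed for 4 genes with lower means in 3xTgAD/Polb+/- than in wild-type arrays, none past the threshold (Atp5g2, at an adjusted p of 0.514, the least clear), 5′ to 3′ on the gene's strand, with the motif in capitals. They lie at chr5:115349072-115349171 (Cox6a1), chr15:102671048-102671147 (Atp5g2), chr10:80406840-80406939 (Uqcr11) and chr4:116075071-116075170 (Uqcrh), all on the minus strand, and in Uqcrh the match is on the opposite strand. The capitals mark the NRF-1 motif in Cox6a1 and Atp5g2, which begins 161 and 41 bases before the start, and the GABP motif in Uqcr11 and Uqcrh, which begins 66 and 11 bases before it.
Cox6a1: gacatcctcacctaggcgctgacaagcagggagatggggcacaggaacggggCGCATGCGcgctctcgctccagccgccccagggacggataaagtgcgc
Atp5g2: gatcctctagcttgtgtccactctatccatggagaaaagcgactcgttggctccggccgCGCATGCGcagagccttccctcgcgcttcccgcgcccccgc
Uqcr11: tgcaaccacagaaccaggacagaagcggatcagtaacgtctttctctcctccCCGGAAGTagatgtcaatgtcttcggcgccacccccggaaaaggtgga
Uqcrh: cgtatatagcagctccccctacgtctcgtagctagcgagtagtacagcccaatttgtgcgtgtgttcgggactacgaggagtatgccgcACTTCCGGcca

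The targeted gene and the arrays were checked first. The mean Polb log2 intensity was 7.73 in wild type, 7.1 in Polb+/-, 7.34 in 3xTgAD and 7 in 3xTgAD/Polb+/- arrays. The Polb+/- difference from wild type was -0.63 (SE 0.202, adjusted p = 1), in the labelled direction but not past the threshold. Between 13205 and 14396 probes were detected per array, and the number of arrays limits the precision. The cortical markers Slc17a7, Tbr1, Neurod2, Cux2 and Rorb were detected on all 19 arrays, while Neurod6 was detected on 0. Of the striatal markers, 8 were measured, and their mean log2 intensity ran from 10.36 to 11.09 in Polb+/-, from 8.52 to 10.61 in wild type, from 8.85 to 10.78 in 3xTgAD and from 8.7 to 9.47 in 3xTgAD/Polb+/- arrays. In bulk tissue, fewer cells of a type and less RNA per cell cannot be told apart. The labels spell the age in 2 ways, "20- month" on 11 arrays and "20 month" on 8, each spelling occurring in every genotype but with only 1 Polb+/- array spelled "20 month", and what the spelling stands for is not given in the sources used here.

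Subunits of complexes III, IV and V were lowest in the 3xTgAD/Polb+/- mice, but unevenly among the 4 arrays, and no single subunit passed the threshold. The mean log2 intensity of the 40 subunits was 11.24 ± 0.0603 (SD, n = 5) in wild type. Polb+/- arrays stood at 11.23 ± 0.0619 (SD, n = 4). It was 11.04 ± 0.213 (SD, n = 6) in 3xTgAD arrays. For the 3xTgAD/Polb+/- arrays it was 10.79 ± 0.471 (SD, n = 4). Both groups with lower means had the larger SDs. The fit shares 1 estimate of the spread across the 4 genotypes, so its p-values can be too small for the 3xTgAD/Polb+/- arrays. Between 3xTgAD/Polb+/- and wild type, the median log2 difference was -0.49 over the 40 subunits and 0.02 over all genes. By complex it was -0.08 for II, -0.48 for III, -0.62 for IV and -0.45 for V. Of the 40, 34 were lower, against 46.4% of all genes. At limma's adjusted p under 0.05, 0 of the 40 subunits were called, against 0.0181% of all genes, and the smallest adjusted p was 0.133 for Cox7a1. At an unadjusted p under 0.05, 25 subunits were lower, against 7.6% of all genes. Many of these subunits were low on the same arrays, so they do not count as separate results. Groups without overlap, all lower, were seen for 6 subunits, against 1.22% of all genes.

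**Figure D1:**
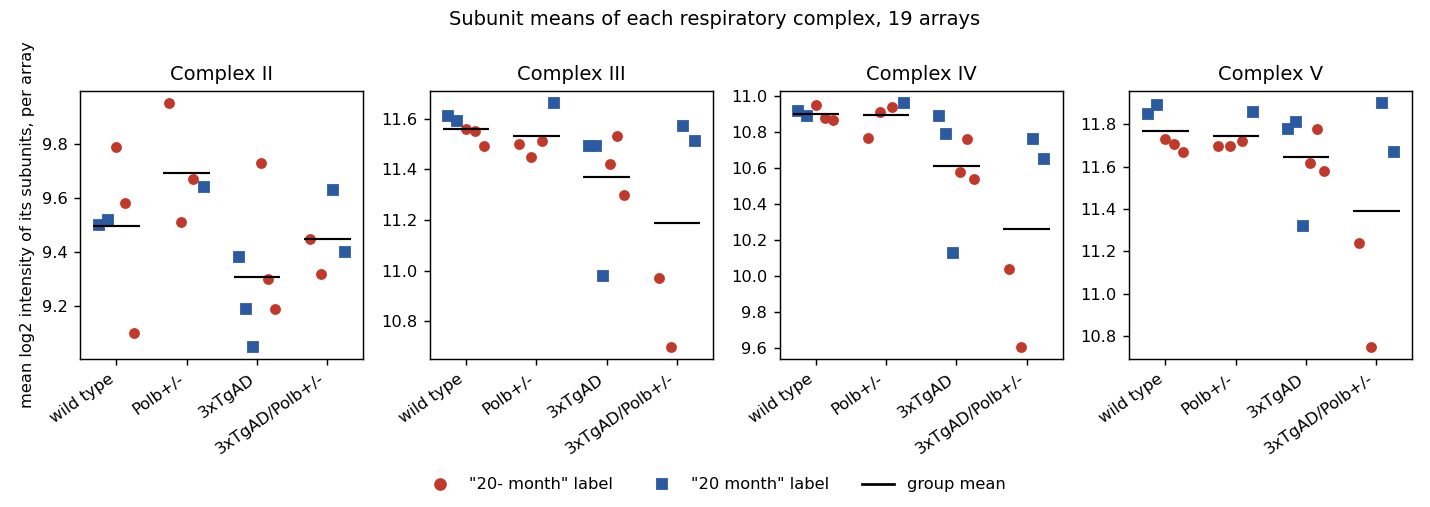
Each point is 1 array's mean log2 intensity over the subunits of 1 complex, by genotype, with the marker giving the age spelling of the label and the bar the group mean. For complex IV the 5 wild-type arrays lie between 10.87 and 10.95 and the 4 3xTgAD/Polb+/- arrays between 9.61 and 10.76.

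Complex II had the smallest median difference between 3xTgAD/Polb+/- and wild type, and its 3 subunits had differences in both directions. Sdhb, the iron-sulphur subunit of its catalytic head, measured 10.61, 10.66, 10.9, 10.87 and 10.41 in wild type, 11.1, 10.75, 10.83 and 10.7 in Polb+/-, and 10.71, 10.42, 10.78 and 10.51 in 3xTgAD/Polb+/- arrays. In 3xTgAD its lowest, median and highest values were 10.18, 10.38 and 11.22. All 4 groups overlapped, and the 3xTgAD/Polb+/- difference from wild type was -0.08 (SE 0.175, adjusted p = 0.876). Sdhc, a membrane anchor that helps form the ubiquinone site, measured 11.99, 11.52, 11.61 and 11.14 in Polb+/- and 10.94, 10.66, 11.11 and 10.93 in 3xTgAD/Polb+/- arrays. These groups did not overlap, though narrowly, and the difference between them was -0.65 (SE 0.169, adjusted p = 0.12). Wild-type Sdhc overlapped both, at 11.25, 11.28, 11.67, 11.05 and 10.93, with 3xTgAD at 10.9, 11.1 and 11.25 (lowest, median, highest). Sdhd, the other anchor, measured 6.71, 6.88, 7.01 and 6.77 in 3xTgAD/Polb+/- arrays, against 5.97, 6.25 and 6.74 (lowest, median, highest) in 3xTgAD. It was the member with the largest positive difference between those genotypes, 0.51 (SE 0.186, adjusted p = 0.488).

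In complex III the differences of the core subunits were small and those of the small subunits larger; the difference between these sets was not tested. Uqcrc1 and Uqcrc2 form the large core on the matrix side, and their 3xTgAD/Polb+/- differences from wild type were -0.05 (SE 0.0888, adjusted p = 0.856) and 0.13 (SE 0.0936, adjusted p = 0.578). Uqcrc1 kept to 12.12 to 12.43 on the 3xTgAD/Polb+/- arrays and 12.28 to 12.39 on the wild-type arrays. Uqcrfs1, the Rieske iron-sulphur subunit, was detected on only 5 of 19 arrays, so its difference of -0.02 (SE 0.151, adjusted p = 0.977) is one of near-background signal. All 4 small subunits tested were lower at an unadjusted p under 0.05, with a median of -0.64: Uqcr11, Uqcr10, Uqcrb and Uqcrh. Uqcr11, the smallest subunit, measured 13.11, 13.21, 12.87, 12.83 and 13 in wild type and 12.65, 12.99, 13.02 and 13.2 in Polb+/- arrays. It measured 11.67, 11.1, 13.1 and 12.44 in 3xTgAD/Polb+/- arrays, and 11.92, 12.84 and 13.21 (lowest, median, highest) in 3xTgAD. Replicates 1 and 2 of the 3xTgAD/Polb+/- group were low and replicate 3 lay within the wild-type range, so the groups overlapped. The difference was -0.93 (SE 0.301, adjusted p = 0.243). Uqcrh, the acidic hinge subunit that helps dock cytochrome c, measured 13.62, 13.66, 13.62, 13.55 and 13.51 in wild type against 12.89, 12.23, 13.61 and 13.73 in 3xTgAD/Polb+/- arrays. The same pair of arrays was low, and its difference was -0.48 (SE 0.211, adjusted p = 0.337). Uqcr10 and Uqcrb differed by -0.65 and -0.64 (adjusted p = 0.26 and 0.314).

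**Figure D2:**
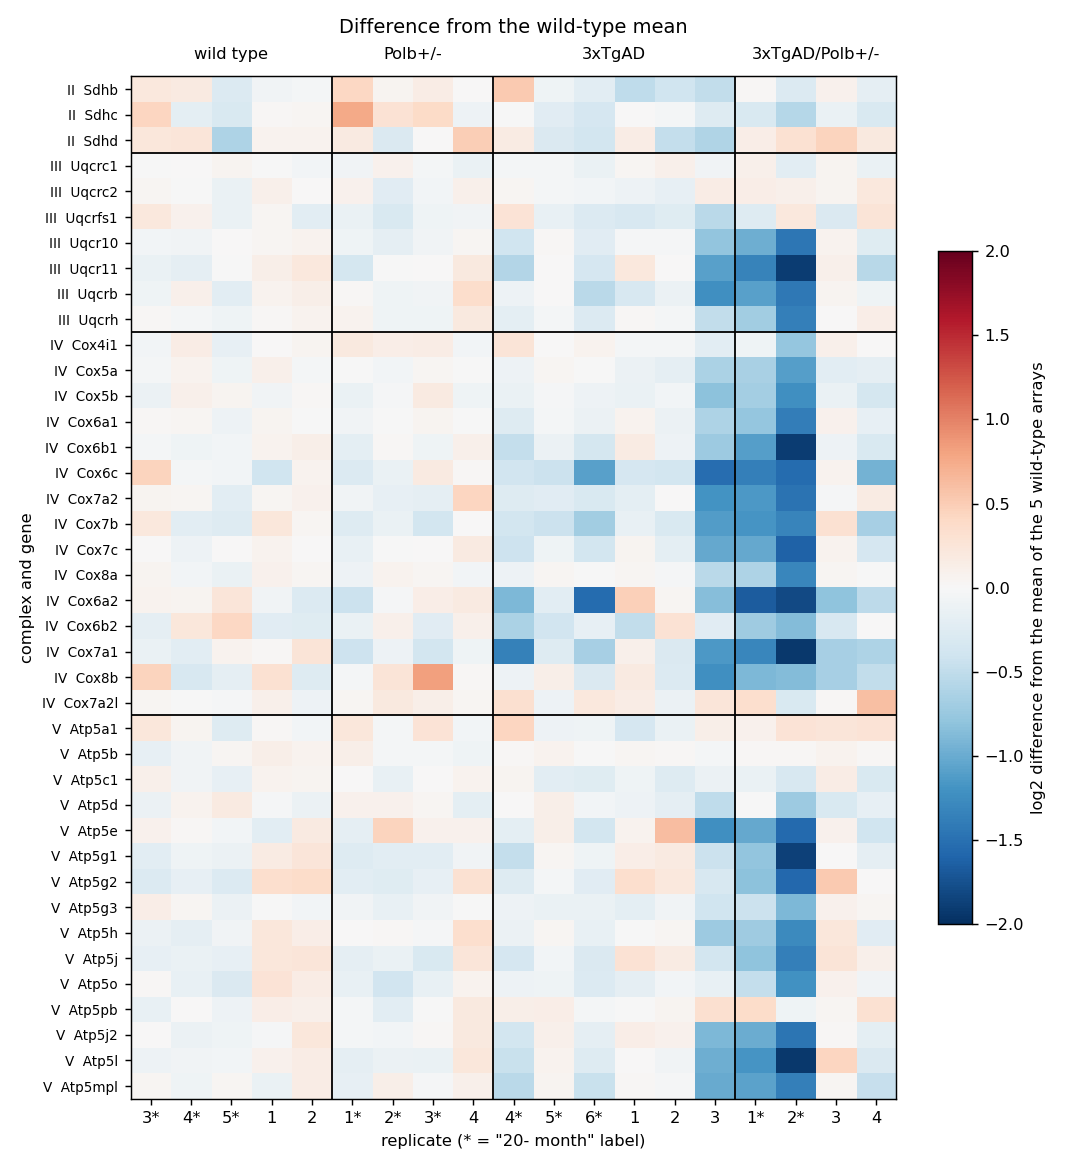
Each cell is the log2 difference of 1 gene on 1 array from that gene's wild-type mean, with genes in rows by complex and role, arrays in columns by genotype, and a star for the "20- month" spelling. The columns of 3xTgAD/Polb+/- replicates 1 and 2 and of 3xTgAD replicate 3 are low across complexes III to V, with 32, 35 and 36 of 40 subunits below the wild-type mean; the column of 3xTgAD replicate 6 has 38 below it, by a smaller median of -0.23.

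Complex IV held the subunits with the largest differences. Cox4i1, the general isoform of a regulatory subunit that binds adenine nucleotides, differed by -0.19 between 3xTgAD/Polb+/- and wild type (SE 0.143, adjusted p = 0.588), with 13.84, 13.88, 13.77, 13.99 and 13.68 in wild type and 13.74, 13.06, 13.93 and 13.83 in the cross. Only replicate 2 lay below the wild-type range. Cox5a, which joins Cox4 early in assembly, measured 13.25, 13.11, 13.11, 13.22 and 13.07 in wild type and 13.14, 13.1, 13.19 and 13.14 in Polb+/- arrays. Its values were 12.52, 13.04 and 13.2 (lowest, median, highest) in 3xTgAD and 12.5, 12.05, 12.94 and 12.97 in 3xTgAD/Polb+/- arrays. All 4 of the last lay below every wild-type and Polb+/- array, and the difference from wild type was -0.54 (SE 0.16, adjusted p = 0.221). Cox5b, the zinc-binding subunit, measured 13.97, 14.06, 13.92, 14.13 and 14.09 in wild type and 13.36, 12.8, 13.9 and 13.68 in 3xTgAD/Polb+/- arrays. Replicate 3 lay just below the wild-type range, and the difference was -0.6 (SE 0.182, adjusted p = 0.221). Cox6b1, which bridges the monomers of the dimer on the intermembrane side, measured 13.49, 13.53, 13.38, 13.33 and 13.36 in wild type and 12.32, 11.52, 13.32 and 13.11 in 3xTgAD/Polb+/- arrays. These groups did not overlap either, and the difference was -0.85 (SE 0.255, adjusted p = 0.221).

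All 10 general subunits of complex IV tested were lower, with a median of -0.61, and 9 of them had an unadjusted p under 0.05. They also included Cox6c at -0.94, Cox7c at -0.73, Cox7b at -0.71, Cox7a2 at -0.62, Cox6a1 at -0.56 and Cox8a at -0.47, with adjusted p from 0.221 to 0.347. Cox7b was detected on 15 of 19 arrays. The exception among the 15 was Cox7a2l, a factor that joins complexes III and IV into supercomplexes, at 0.17 (SE 0.143, adjusted p = 0.646).

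The isoforms known from other tissues included the largest differences of complex IV. Cox6a2, the heart and muscle isoform of Cox6a, measured 9.76, 9.56, 9.9, 9.88 and 10.07 in wild type and 9.4, 9.81, 9.97 and 10.02 in Polb+/- arrays. It measured 8.17, 8.03, 9.03 and 9.3 in 3xTgAD/Polb+/- arrays, and 8.3, 9.3 and 10.32 (lowest, median, highest) in 3xTgAD. All 4 cross arrays lay below every wild-type and Polb+/- array, while 3xTgAD spanned both. The difference from wild type was -1.2 (SE 0.322, adjusted p = 0.166). Cox7a1, the heart and muscle isoform of Cox7a, measured 7.99, 8.23, 7.83, 7.76 and 8.03 in wild type, 7.55, 7.86, 7.6 and 7.88 in Polb+/-, and 6.65, 6.04, 7.3 and 7.35 in 3xTgAD/Polb+/- arrays. The last group again lay below both others, with 3xTgAD at 6.61, 7.49 and 8.07 (lowest, median, highest). Its difference from wild type was -1.13 (SE 0.271, adjusted p = 0.133). Cox8b, the muscle isoform of Cox8, was detected on all 5 wild-type arrays, all 4 Polb+/- arrays, 5 of 6 3xTgAD arrays and 0 of 4 3xTgAD/Polb+/- arrays. Against the lowest signal of detected probes, its mean was at least 1.45-fold lower in the cross than in wild type and at least 1.75-fold lower than in Polb+/- arrays. These limits concern the measured means and carry no sampling error. The fits of the measured differences gave adjusted p of 0.246 and 0.119 in the same order, neither past the threshold. Cox6b2, the testis isoform of Cox6b, was detected on 17 arrays and differed by -0.47 (SE 0.194, adjusted p = 0.309).

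Of 7 skeletal and heart muscle markers listed, 3 were tested. Their mean log2 intensity was 6.82 to 7.04 in wild type, 6.69 to 6.92 in Polb+/-, 6.46 to 7.02 in 3xTgAD and 6.09 to 6.63 in 3xTgAD/Polb+/- arrays. The defining muscle genes Ckm, Myh7 and Tnni3 were detected on 0 of 19 arrays. Myl2, a myosin light chain detected on 10 arrays, averaged 5.77 in wild type, 5.91 in Polb+/-, 5.13 in 3xTgAD and 4.78, near the lowest values of the arrays, in 3xTgAD/Polb+/- arrays. Mb, detected on 8 arrays, averaged 5.24, 5.2, 5.33 and 5.21 in the same order. Acta1, detected on all 19 arrays, averaged 9.68, 9.42, 9.58 and 9.3. The part of these markers in the values of Cox6a2, Cox7a1 and Cox8b was not tested.

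Within complex V the large subunits of the catalytic head had differences at or above 0. Atp5a1 and Atp5b form the alpha and beta subunits of the head, where ATP is made. Atp5b measured 14.75, 14.69, 14.46, 14.55 and 14.67 in wild type and 14.64, 14.64, 14.69 and 14.64 in 3xTgAD/Polb+/- arrays, all inside the wild-type range. Its difference was 0.03 (SE 0.083, adjusted p = 0.908), but -0.13 when arrays were centred on their medians instead of quantile normalized. Under that scaling the median of all genes can move too, and for this comparison it is not given here. Atp5b ranked between 2 and 14 in brightness among all probes of each array. Atp5a1 measured 8.66, 8.58, 8.87, 8.7 and 8.38 in wild type and 8.73, 8.91, 8.89 and 8.91 in 3xTgAD/Polb+/- arrays, a difference of 0.22 (SE 0.136, adjusted p = 0.505). The gamma subunit Atp5c1 of the central stalk differed by -0.15 and the delta subunit Atp5d by -0.3 (adjusted p = 0.565 and 0.358). The epsilon subunit Atp5e, dim and detected on 17 arrays, differed by -0.72 (SE 0.302, adjusted p = 0.313).

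The ring and membrane accessory subunits of complex V that were tested all had negative differences, from -0.75 to -0.3. Atp5e lay within that range too, and the difference between the parts of the complex was not tested. Atp5g1, Atp5g2 and Atp5g3 encode the same mature c subunit of the rotating ring, and they differed by -0.71, -0.47 and -0.3, with adjusted p of 0.27, 0.514 and 0.393. Atp5g1 measured 13.04, 13.12, 12.67, 12.79 and 12.75 in wild type and 12.09, 11.01, 12.88 and 12.7 in 3xTgAD/Polb+/- arrays. Replicates 1 and 2 were below the wild-type range and replicates 3 and 4 inside it. Of the membrane accessory subunits, Atp5l, Atp5j2 and Atp5mpl, which belong to the parts around the ring and the dimer contact, differed by -0.75, -0.65 and -0.72. Atp5mpl had the smallest adjusted p of the complex, 0.243 (SE 0.234). It measured 12.98, 13.27, 13.16, 13.04 and 13.15 in wild type, 12.96, 13.24, 13.1 and 13.22 in Polb+/-, and 12.05, 11.75, 13.15 and 12.66 in 3xTgAD/Polb+/- arrays. Replicate 3 lay inside the wild-type range and the other cross arrays below it, with 3xTgAD at 12.11, 12.89 and 13.17 (lowest, median, highest). In the peripheral stalk, which holds the head still, Atp5h, Atp5j and Atp5o differed by -0.5, -0.45 and -0.42, and Atp5pb by 0.15 (adjusted p from 0.337 to 0.589). Another, dimmer Atp5j probe, detected on all 19 arrays, differed by only -0.15 (SE 0.194).

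**Figure D3:**
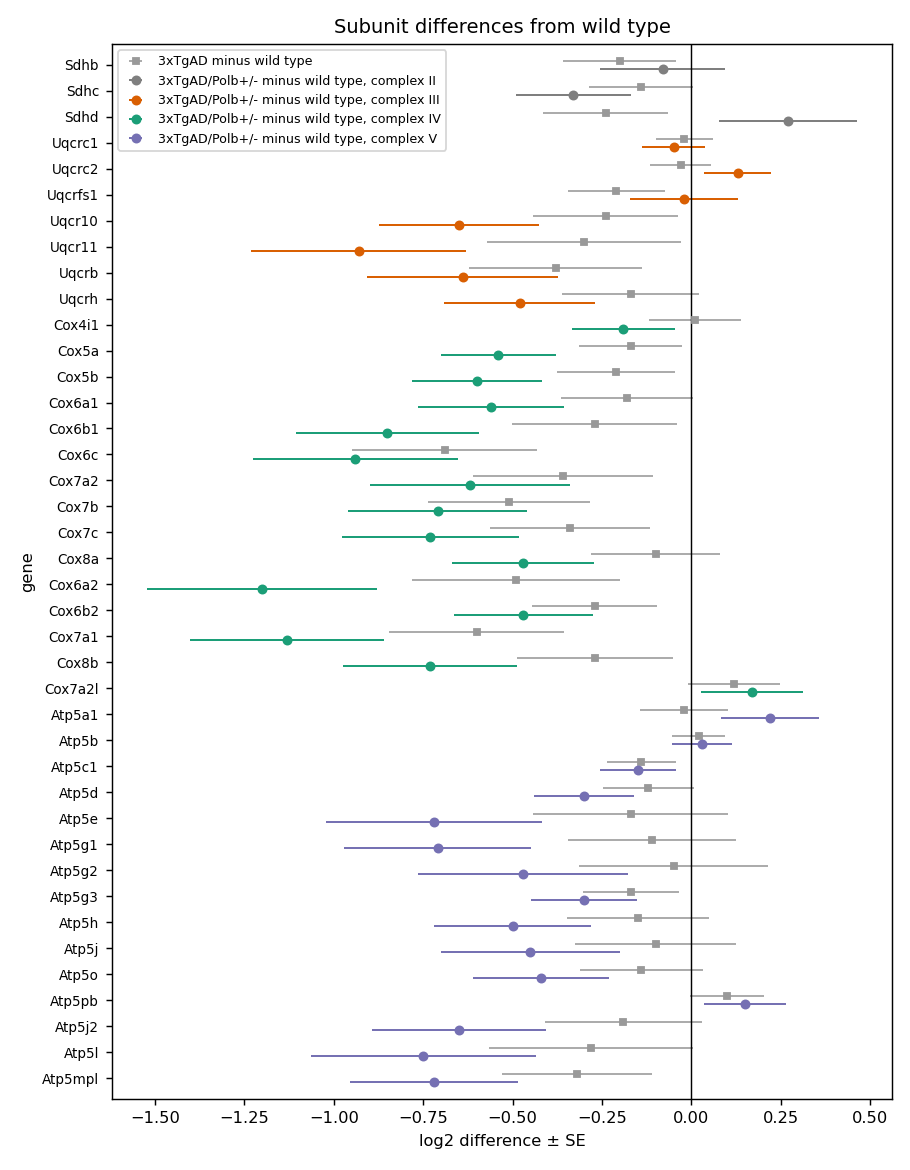
The log2 difference from wild type of each of the 40 subunits, with its SE, is given for 3xTgAD/Polb+/- (circles, coloured by complex) and 3xTgAD arrays (grey squares). The largest differences of the cross are -1.2 for Cox6a2 and -1.13 for Cox7a1, and Sdhd lies highest at 0.27. Both comparisons share the wild-type arrays.

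Against 3xTgAD, the 3xTgAD/Polb+/- subunits had a median of -0.3, and 32 of 40 were lower, against 48.1% of all genes. In this comparison 0 subunits and 0% of all genes were called, and 6 subunits were lower at an unadjusted p under 0.05, against 3.99% of all genes. The smallest p of complexes III, IV and V were those of Uqcr11 at -0.63 (SE 0.29, adjusted p = 0.552), Cox5a at -0.37 (SE 0.154, adjusted p = 0.523) and Atp5g1 at -0.6 (SE 0.251, adjusted p = 0.526). Against Polb+/- the median was -0.52, 33 of 40 were lower (45.1% of all genes), and 0 were called (0.0903% of all genes). At an unadjusted p under 0.05, 22 were lower, against 7.23% of all genes. Sdhc, Cox5a, Cox6a2, Cox7a1 and Cox8b did not overlap between these groups, 5 subunits against 2.76% of all genes. In complexes III and V the smallest p belonged to Uqcr11 at -0.89 (SE 0.318, adjusted p = 0.265) and Atp5mpl at -0.73 (SE 0.247, adjusted p = 0.234).

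Over all arrays the single mutants had smaller median differences from wild type over the 40 subunits than the cross, an order that was not tested. Complex II did not follow it, with medians of -0.2 in 3xTgAD and 0.16 in Polb+/- against -0.08 in the cross. In 3xTgAD the median was -0.17 over the 40 subunits, and 36 were lower, against 51.8% of all genes. Under median centring the median was -0.41, while that of all genes moved to -0.17. None was called, against 0.00903% of all genes, and 3 were lower at an unadjusted p under 0.05 (3.01% of all genes). Without 3xTgAD replicate 3 the median was -0.11, with -0.13 for complex III and -0.04 for complex V, and Uqcrb and Atp5mpl stood at -0.22 and -0.19. Within the "20 month" arrays the order turned, with a median of -0.28 and 35 of 40 lower in 3xTgAD against -0.12 and 28 of 40 in the cross. The 3xTgAD arrays of that spelling are replicates 1, 2 and 3. Their median subunits stood at 0.01, -0.05 and -0.57 from the mean of all wild-type arrays. The part of replicate 3 in this turn was not tested. Over all 3xTgAD arrays the smallest p belonged to Cox6c, a small transmembrane subunit of complex IV, at -0.69 (SE 0.258, adjusted p = 0.748). Cox6c measured 11.53, 12.01, 12.37, 11.89 and 11.88 in wild type and 10.41, 11.53 and 11.6 (lowest, median, highest) in 3xTgAD. Of the other complexes, Sdhd at -0.24 (SE 0.174, adjusted p = 0.929), Uqcrb at -0.38 (SE 0.241, adjusted p = 0.925) and Atp5mpl at -0.32 (SE 0.211, adjusted p = 0.925) had the smallest p. In Polb+/- the median was -0.01, 24 of 40 were lower (50.7% of all genes), and 0 subunits and 0% of all genes were called. At an unadjusted p under 0.05, 0 subunits were lower, against 1.65% of all genes. Sdhc had the largest difference, 0.33 (SE 0.16), with Uqcrfs1 at -0.14, Cox8b at 0.27 and Atp5o at -0.15 the members of smallest p in the other complexes, all 4 at an adjusted p of 1. The interaction term, the 3xTgAD/Polb+/- difference beyond the sum of both single mutants, had a median of -0.31, with 32 of 40 below 0 against 46.7% of all genes. It called 0 subunits and 0% of all genes, with 2 lower at an unadjusted p under 0.05 against 1.47% of all genes. Its smallest p by complex were those of Sdhc at -0.51 (SE 0.222), Uqcrfs1 at 0.34 (SE 0.209), Cox8b at -0.74 (SE 0.337) and Atp5e at -0.66 (SE 0.419), all at an adjusted p of 1.

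The lowest subunit means were those of 3 arrays. The mean over the 40 subunits was 10.21 on 3xTgAD/Polb+/- replicate 2, 10.61 on replicate 1 and 10.65 on 3xTgAD replicate 3, and from 10.96 to 11.32 on the other 16 arrays. On these 3 arrays the median subunit stood at -1.29, -0.71 and -0.57 from its wild-type mean, and on 3xTgAD/Polb+/- replicates 3 and 4 at 0.06 and -0.17. Smaller differences reached further: on 3xTgAD replicate 6 the median was -0.23 with 38 of 40 subunits below the wild-type mean, and on cross replicate 4 the complex IV median was -0.31. Cox6a2 and Cox7a1 were below the wild-type range on all 4 cross arrays. The same 3 arrays were the lowest in the means of cytosolic ribosomal protein genes and of complex I genes. They were also the lowest in interneuron markers (6 of 7 listed), with means of 11.57, 11.64 and 11.63 in the order above. That mean was 11.94 to 12.08 in wild type, 11.92 to 12.07 in Polb+/-, 11.63 to 12.02 in 3xTgAD and 11.57 to 11.96 in 3xTgAD/Polb+/- arrays, and all 6 markers were detected on all 19 arrays. The markers went both ways. In wild-type and then cross arrays, Sst averaged 12.55 and 11.86, Pvalb 12.91 and 12.3, and Npy 12.03 and 11.32. Gad1 averaged 11.97 and 12.21, Vip 10.12 and 10.44, and Slc32a1 12.63 and 12.58 in that order. The 3 arrays had a 95th percentile of deposited intensity of 1860, 2077 and 1362, ranking 2, 6 and 1 from the lowest of the 19 arrays. Wild-type replicate 2, with a subunit mean of 11.29, ranked 3 at 1880. A principal component analysis of all genes tested, the subunits among them, also set these arrays apart. On its component 2, with 18.3% of the variance, they ranked 1, 3 and 2 from the same end. Red blood cell markers, 3 of 7 listed, averaged 9.12, 8.17, 11.02 and 10.17 on the 3xTgAD/Polb+/- arrays in replicate order, 9.87 to 10.48 in wild type, 9.71 to 11.29 in Polb+/- and 9.56 to 10.25 in 3xTgAD. The part of these measures in the subunit values was not tested. Without the 3 arrays, which were picked by the outcome so that differences had to shrink, the 3xTgAD/Polb+/- medians against wild type were -0.04 for complex II, -0.01 for III, -0.18 for IV and 0 for V. Leaving out replicate 2 of the cross alone brought complex III to -0.18 and complex V to -0.16. Leaving out replicate 3 alone, 14 subunits were called lower against wild type (2.32% of all genes) and 11 against Polb+/- (1.84%), Uqcr11 among the first at -1.27 with an adjusted p of 0.0299. That array had the highest subunit mean of the cross arrays, 11.24, so the cross mean had to fall without it. No other fit without 1 array called a subunit in these comparisons.

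The calls also depended on the age spelling, since cross replicates 1 and 2 carry "20- month" and replicates 3 and 4 "20 month". Within the "20- month" arrays (3 wild type, 2 cross), 27 subunits fell below wild type at an adjusted p under 0.05, against 8.55% of all genes. They were 4 of complex III, 13 of complex IV, 10 of complex V and 0 of complex II. Atp5l there differed by -1.48 (SE 0.196, adjusted p = 0.00083), Uqcr11 by -1.52 (SE 0.197, adjusted p = 0.000784) and Cox6a1 by -1.06 (SE 0.16, adjusted p = 0.0016). Within the "20 month" arrays (2 wild type, 2 cross), 0 subunits were called, against 0.0361% of all genes lower, and 0 were lower at an unadjusted p under 0.05, against 3.57%. The medians were -1 against 0 for complex III, -1.06 against -0.23 for complex IV and -0.87 against -0.13 for complex V. Cox7a1 and Cox6a2 remained negative in the second set, at -0.79 and -0.49, neither past the threshold (adjusted p = 0.701 and 0.855).

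The difference between both spellings was itself tested. For 3xTgAD/Polb+/- against wild type, 0 subunits passed (0.126% of all genes lower), with a smallest adjusted p of 0.0774, while 23 were more negative within "20- month" at an unadjusted p under 0.05, against 10% of all genes. Against 3xTgAD, 12 subunits passed, all more negative within "20- month" (2.18% of all genes). They were Uqcr10, Uqcrb and Uqcrh of complex III, Cox5a, Cox6a1, Cox7a2 and Cox8a of complex IV, and Atp5g2, Atp5g3, Atp5h, Atp5j and Atp5l of complex V. The low cross replicates 1 and 2 carry "20- month", and the low 3xTgAD replicate 3 carries "20 month". The part of these arrays in the difference between the spellings was not tested. Within "20- month", 22 subunits were lower in the cross than in 3xTgAD (4.85% of all genes) and 28 lower than in Polb+/- (7.87%), and 9 had a negative interaction (1.23%). Against Polb+/- the difference between the spellings passed for 0 subunits and 0% of all genes, but it rests on 1 Polb+/- array under "20 month", assumed to vary like the other groups.

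**Figure D4:**
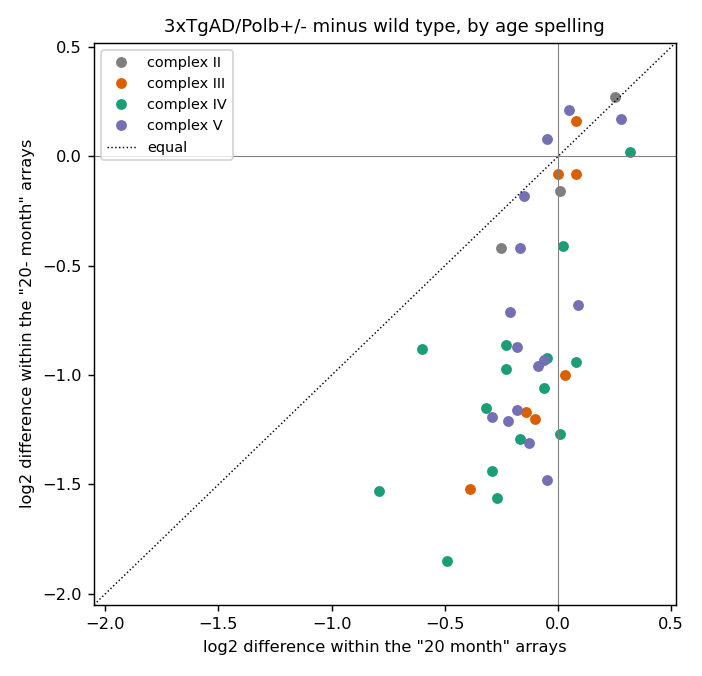
Each point is 1 subunit, coloured by complex, with its log2 difference between 3xTgAD/Polb+/- and wild type within the "20 month" arrays on the horizontal axis and within the "20- month" arrays on the vertical axis; the dotted line marks equal differences. The medians of complexes III, IV and V are -1, -1.06 and -0.87 on the vertical axis and 0, -0.23 and -0.13 on the horizontal axis.

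Other genes of the pathway and of ribosomes were set beside the subunits. Between 3xTgAD/Polb+/- and wild type, 46.4% of all genes were lower and 0.0181% were called. None of those lists held a called gene, but calls were so rare that this is no result about a list. Among assembly factors and electron carriers, 34 of 47 listed were tested, 23 were lower between 3xTgAD/Polb+/- and wild type, and 0 were called, with a median of -0.23. Coa6, a copper-handling assembly factor of complex IV, had the smallest adjusted p at -0.73 (SE 0.176, adjusted p = 0.133), followed by Coa4 at -0.64 (adjusted p = 0.221). Of 38 complex I genes (symbols beginning Nduf, assembly factors included), 33 were lower with a median of -0.4 and 0 called. Outside the respiratory chain, 58 of 70 mitochondrial and 50 of 56 cytosolic ribosomal protein genes were lower, with medians of -0.23 and -0.46 and 0 called in either list. The 14 tricarboxylic acid cycle genes tested, of 17 listed, had a median of 0.12. Of 18 biogenesis regulators, 13 were tested and 3 were lower, with a median of 0.1 and 0 called. Esrra, a nuclear receptor that activates respiratory genes, differed by -0.51 (SE 0.126, adjusted p = 0.133), and its coactivator gene Ppargc1b by -0.56 (SE 0.179, adjusted p = 0.237). Nrf1, which encodes the factor of the motif printed for Cox6a1 and Atp5g2, differed by 0.26 (SE 0.111, adjusted p = 0.313).

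The 5 members that did not pass the detection filter were Uqcrq of complex III, Cox4i2 (an isoform linked to lung), Cox7b2 and Cox8c (isoforms linked to testis) of complex IV, and Atp5k of complex V. Of the 40 tested, 35 were detected on all 19 arrays.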

How the data were processed

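The deposited table gave, per probe and array, an intensity, a detection p-value and a z score. The intensities were the authors' scanner values from GenomeStudio 1.9.0, per the submitters' processing notes, on a linear scale and at or above 30.4. The detection p-values came from the same software in the deposited table. The deposited z score of each probe was recomputed as the centred and scaled log value of the array within 5e-10, so the authors' scores served as an alternative scaling only. Intensities were background corrected and quantile normalized with neqc (offset 16) in limma 3.58.1 under R 4.3.3, which gave log2 intensities from the deposited intensities. Of 25697 probes, 14942 with a detection p-value under 0.05 on at least 4 arrays were kept. Each gene was represented by its probe of highest mean, giving 11072 genes, with symbols from the platform annotation (23978 probes have 1 symbol, 0 several, 1719 none). A linear model with 1 mean per genotype over 19 arrays (15 residual and 4.42 prior degrees of freedom) gave moderated tests, adjusted by Benjamini-Hochberg over all 11072 genes at 0.05. These adjusted p-values are limma's throughout. The method was tested on simulated data.

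The members and lists were chosen with earlier results of these data known. Named with values were core subunits, the members past the threshold in each comparison or otherwise the member of smallest p per complex, and list genes past the threshold or otherwise up to 2 of smallest p; further subunits were described after their values were seen. Alternatives tried were other scalings, filters and probe rules, each age spelling alone or as a block, a striatal covariate, each array left out and the replicate number as a block. Correlations of same-numbered arrays ran from -0.345 to 0.441 (25 pairs, of which 7 were over 0.1) and were not set against a chance level. The numbers were not taken as pairs. Promoter sequence came from RefSeq, GRCm38.p6.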

Additional observations from a re-analysis of the deposited data

Results flagged for a closer look

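In groups of 4 to 6 arrays, a highest or lowest array far from the rest was looked for in the complex means and the described subunits. It was found in 7 of 92 groups, and chance alone marks about 1 in 20. In 3xTgAD, replicate 3 stood below the others for Cox5a (12.52, the nearest 12.98), Cox5b (13.21, the nearest 13.9) and Cox8b (4.62, the nearest 5.57). In 3xTgAD/Polb+/- arrays, Atp5a1 was lowest on replicate 1 at 8.73, and Atp5b was highest on replicate 3 at 14.69, while the others read 14.64. Wild-type replicate 5 was lowest for Sdhd at 5.96. Polb+/- replicate 4 had the highest complex V mean of its group, 11.86.

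The 3xTgAD/Polb+/- difference from 3xTgAD depended on the age spelling for 12 subunits by a test of that difference. Within "20- month" it was more negative than within "20 month" by a log2 difference of -1.76 for Atp5l, -1.59 for Uqcrb, -1.57 for Cox7a2, -1.22 for Atp5g2 and -1.2 for Uqcr10. The values were -1.14 for Atp5h, -1.13 for Cox8a, -1.12 for Cox6a1, -1.12 for Uqcrh, -1.01 for Atp5j, -0.97 for Cox5a and -0.82 for Atp5g3. Each spelling held 2 arrays of the cross and 3 of 3xTgAD. The low cross replicates 1 and 2 carry "20- month", and the low 3xTgAD replicate 3 carries "20 month".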

How the results depend on the processing

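The values depended on the age spelling, on a few arrays and, for 3xTgAD minus wild type, on the scaling, and the causes were not tested. Within "20 month" there is 1 Polb+/- array, so every value given for that spelling with Polb+/- or the interaction rests on 1 sample in that arm. Subunits called numbered 27 within "20- month" for 3xTgAD/Polb+/- minus wild type, 22 minus 3xTgAD, 28 minus Polb+/- and 9 for the interaction, and 1 for the first with spelling as a block (0.307% of all genes). Medians within "20- month" and then "20 month", minus wild type, were -1 and 0 for complex III, -1.06 and -0.23 for IV, and -0.87 and -0.13 for V. Minus 3xTgAD they were -0.2 and 0.42 for complex II, -0.87 and 0.19 for III, -0.86 and 0.14 for IV, and -0.86 and 0.13 for V. Minus Polb+/- they were -1 and -0.12 for complex III, -1.07 and -0.26 for IV, and -0.88 and -0.06 for V. For the interaction they were -0.37 and 0.2 for complex II, -0.87 and 0.12 for III, -0.86 and 0.15 for IV, and -0.81 and 0.15 for V. Within "20 month", signs turned for Sdhc (-0.13) and Uqcrfs1 (0.02) in Polb+/- minus wild type; for Sdhb (0.01), Uqcrfs1 (0.08), Cox4i1 (0.02) and Atp5b (-0.05) in the cross minus wild type; for Uqcr11 (0.06) and Cox5a (0.11) minus 3xTgAD; and for Sdhc in the interaction (0.01). Without the 3 lowest arrays, a choice made after seeing the data, medians for complexes III, IV and V were -0.01, -0.18 and 0 minus wild type, 0.13, 0.03 and 0.07 minus 3xTgAD, 0, -0.14 and 0.1 minus Polb+/-, and 0.15, 0.06 and 0.13 for the interaction, and Cox4i1 minus wild type was 0.05. Median centring gave complex III -0.44 for 3xTgAD minus wild type, -0.72 for the cross minus wild type and -0.74 minus Polb+/-, and Atp5b -0.13. The median of all genes can move too under this scaling, as it did for 3xTgAD minus wild type. For the cross it is not given here, so these values do not show a change particular to the subunits. With the striatal mean as covariate, the cross minus Polb+/- was 0.03 for complex II and -0.63 for V, the interaction 0.18 for II, and Uqcrfs1 minus wild type 0.03. With no detection filter, complex III minus Polb+/- was -0.26.

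For 3xTgAD minus wild type, the fits without 1 array each gave -0.24 to -0.13 for complex III and -0.17 to -0.04 for V, both upper values without 3xTgAD replicate 3. Only the fit without cross replicate 3, the cross array with the highest subunit mean, called any subunit. Over the 19 fits without 1 array each, 0 to 14 subunits were called for the cross minus wild type and 0 to 11 minus Polb+/-. Complex III ranged from -0.68 to -0.18 minus wild type, -0.47 to 0.01 minus 3xTgAD, -0.71 to -0.21 minus Polb+/- and -0.5 to -0.04 for the interaction. Complex V ranged from -0.69 to -0.16, -0.58 to -0.05, -0.6 to -0.08 and -0.5 to 0.03. Minus wild type, Uqcrc1 ranged from -0.1 to 0.01, Uqcrfs1 from -0.11 to 0.07, Cox4i1 from -0.29 to 0 and Atp5b from -0.01 to 0.06. With the replicate number as a block, 0 subunits were called in the 6 comparisons, and the medians of the cross minus wild type were -0.11, -0.47, -0.63 and -0.47 for complexes II to V. Of 18 arrays with a same-numbered partner, 8 correlated best with their own number. Dim subunits (Uqcrfs1, Cox8b, Cox7b, Atp5e and Cox6b2) lie near background, which limits their measured differences.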
